A study of Mus musculus with 6 samples.

Results

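Accessibility at DNA repair genes was read from an ATAC-seq table of 52957 regions, as the region nearest each gene that held the most reads. ATAC-seq uses the Tn5 transposase, which cuts and tags exposed DNA, so a region with many reads is open chromatin. Genes were taken by symbol (the Rad series without the cohesin gene Rad21, Fanc, Xrcc, Ercc, Msh, Mlh and Neil genes, and named genes such as Brca2, Atr, Chek1 and Xpc). For each gene the region with its centre at most 1000 bp from the transcription start site and with the highest mean was kept. This gave 56 promoter regions, 1 per gene, of 64 genes that matched with any region. The other 8 genes, Fancf, Fancl, Lig4, Mlh3, Msh4, Neil2, Xrcc3 and Xrcc6, had regions beyond 1000 bp alone, and further genes of these families are not analysed here. A region covered the start site itself in 52 of the 56 cases.

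All 6 libraries came from NIH3T3, a mouse fibroblast line that grows without limit and whose chromosome number is abnormal. In every line a T3H48 hammerhead ribozyme, an RNA that can cut itself, had been inserted into intron 3 of Actg1, the cytoplasmic gamma-actin gene. The ribozyme was catalytically active in 3 libraries and inactive in 3, so the controls carried the insertion too. The series asks whether destabilising an RNA changes transcription elsewhere, and cleavage of the Actg1 transcript is not measured by this assay. The labels speak of stable lines without saying how many there were, so a p-value here covers the spread between libraries, which may be technical, and ribozyme activity cannot be told apart from the history of a line.

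The libraries summed to 6433944 to 6548535 normalised reads each. Reads before scaling, estimated from the spacing that scaling leaves in the whole numbers, ran from 3710000 to 6840000 with the active ribozyme and from 7330000 to 8960000 with the inactive, so that each active library was the shallower. Across all tested regions the Pearson correlation was 0.969 to 0.976 within the active group, 0.982 to 0.984 within the inactive group and 0.821 to 0.829 between groups. Promoter regions were present for 9 of 12 fibroblast markers, among them Vim, Fn1, Col1a1 and Pdgfrb, and for 1 of 12 markers of other cell types, the keratin gene Krt8. The summed level of the fibroblast markers ranged from 2501 to 2670 (active) and from 3090 to 3187 (inactive). Of the 9, 6 were lower, with Vim, Fn1, Col1a1 and Pdgfrb among them, and 2 were higher, Col1a2 and Twist1. Of the promoters of all genes, 37.7% were lower and 21.2% higher. Krt8 stood at 134 to 171 against 78 to 89. The part of these marker differences in the results on repair genes was not tested.

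DNA repair is a set of pathways that each read 1 kind of damage. Mismatch repair corrects copying errors, base excision repair removes altered bases, nucleotide excision repair cuts out bulky lesions, and double-strand breaks are rejoined by end joining or copied from the sister chromatid by homologous recombination. Checkpoint kinases hold the cell cycle meanwhile. Most of these genes are expressed in every dividing cell from CpG-rich promoters, and several of them are raised in S phase by E2F factors.

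Promoter sequences were taken from RefSeq (GRCm38.p6, a different build from the mm39 of the regions), which held 40 of the 56 genes. The 4 shown were chosen by their values in the comparison. Chek1 had the largest fall, Mre11a the second largest, Trp53bp1 a fall beyond that of its surroundings, and Msh3 the second largest rise. Mre11a had a log2 fold change of -0.61 where the median of surrounding regions was -0.65, and Msh3 0.39 where it was 0.38. With every library centred on such medians, the values were 0.06 and -0.04 and did not pass the threshold. Each is the 250 bases before the start site, 5′ to 3′ on the strand of the gene, with matches to the searched motifs in capitals.
Chek1 (chr9:36726659-36726908, minus strand): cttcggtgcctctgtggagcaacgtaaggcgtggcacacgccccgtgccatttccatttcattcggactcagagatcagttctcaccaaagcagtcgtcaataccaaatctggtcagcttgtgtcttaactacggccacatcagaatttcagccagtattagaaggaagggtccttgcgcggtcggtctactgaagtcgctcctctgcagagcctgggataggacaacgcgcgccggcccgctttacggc
Mre11a (chr9:14784404-14784653, plus strand): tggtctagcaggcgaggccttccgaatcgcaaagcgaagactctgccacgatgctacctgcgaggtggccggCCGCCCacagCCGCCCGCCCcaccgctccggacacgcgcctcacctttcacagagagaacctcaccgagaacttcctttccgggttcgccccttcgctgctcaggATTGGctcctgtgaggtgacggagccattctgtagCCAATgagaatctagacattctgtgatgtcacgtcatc
Trp53bp1 (chr2:121271408-121271657, minus strand): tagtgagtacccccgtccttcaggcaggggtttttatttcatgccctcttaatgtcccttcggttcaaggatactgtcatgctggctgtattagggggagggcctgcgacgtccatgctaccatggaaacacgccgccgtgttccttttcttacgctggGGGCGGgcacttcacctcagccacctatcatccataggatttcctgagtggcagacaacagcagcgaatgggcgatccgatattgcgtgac
Msh3 (chr13:92355004-92355253, minus strand): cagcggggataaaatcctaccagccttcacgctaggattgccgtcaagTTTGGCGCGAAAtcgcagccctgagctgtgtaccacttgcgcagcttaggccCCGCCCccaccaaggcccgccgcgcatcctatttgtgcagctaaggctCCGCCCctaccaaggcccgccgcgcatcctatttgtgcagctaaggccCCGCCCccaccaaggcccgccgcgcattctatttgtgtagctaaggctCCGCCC
The Msh3 sequence held 4 GC boxes, the binding letters of Sp1-type factors, and overlapping E2F-type letters on opposite strands 194 and 190 bases before the start. The Mre11a sequence held 2 CCAAT boxes and 3 GC boxes, the Trp53bp1 sequence 1 GC box, and the Chek1 sequence none of the motifs searched.

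Of the 56 promoters, 10 rose and 19 fell in the active line, and 27 did not pass (limma on log2(value + 1), Benjamini-Hochberg adjusted p under 0.05 over 51253 regions). That is 51.8% called, beside 58.9% of the promoter regions of all 9416 genes measured in the same way and 60.1% of all regions tested (30.9% higher and 29.2% lower). By direction, 17.9% of the repair promoters rose against 21.2% of all promoters, and 33.9% fell against 37.7%. The median log2 fold change was -0.11 for the repair promoters, -0.11 for all promoters and -0.02 for all regions. The counts and the median were thus near those of promoters in general.

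Changes at repair promoters were small. Their log2 fold changes ran from -0.93 at Chek1 to 0.41 at Fancm. From the 5th to the 95th percentile they spanned -0.53 to 0.36, beside -0.68 to 0.66 for all promoters. A change of at least 1.5-fold past the threshold was seen at 2 of the 56 (3.57%), Chek1 and Mre11a, against 12.5% of all promoters. None of the 56 reached 2-fold, against 4.86% of all promoters. Every active library was above every inactive one at 10 of the 56 and below at 25, so that groups overlapped at 21, while they did not overlap at 61.2% of all promoters (21.9% above and 39.3% below). The promoters without overlap were the 10 that rose, 17 of the 19 that fell and 8 that did not pass. Without active replicate 2, the shallowest library, 9 rose and 22 fell, and the shares of all promoters were not counted for that setting. In limma without an intensity trend 6 rose and 10 fell, beside 15.0% and 22.4% of all promoters (37.3% in all). With the replicate number as a block 10 rose and 19 fell, beside 20.7% and 36.9% of all promoters (57.7% in all).

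**Figure D1:**
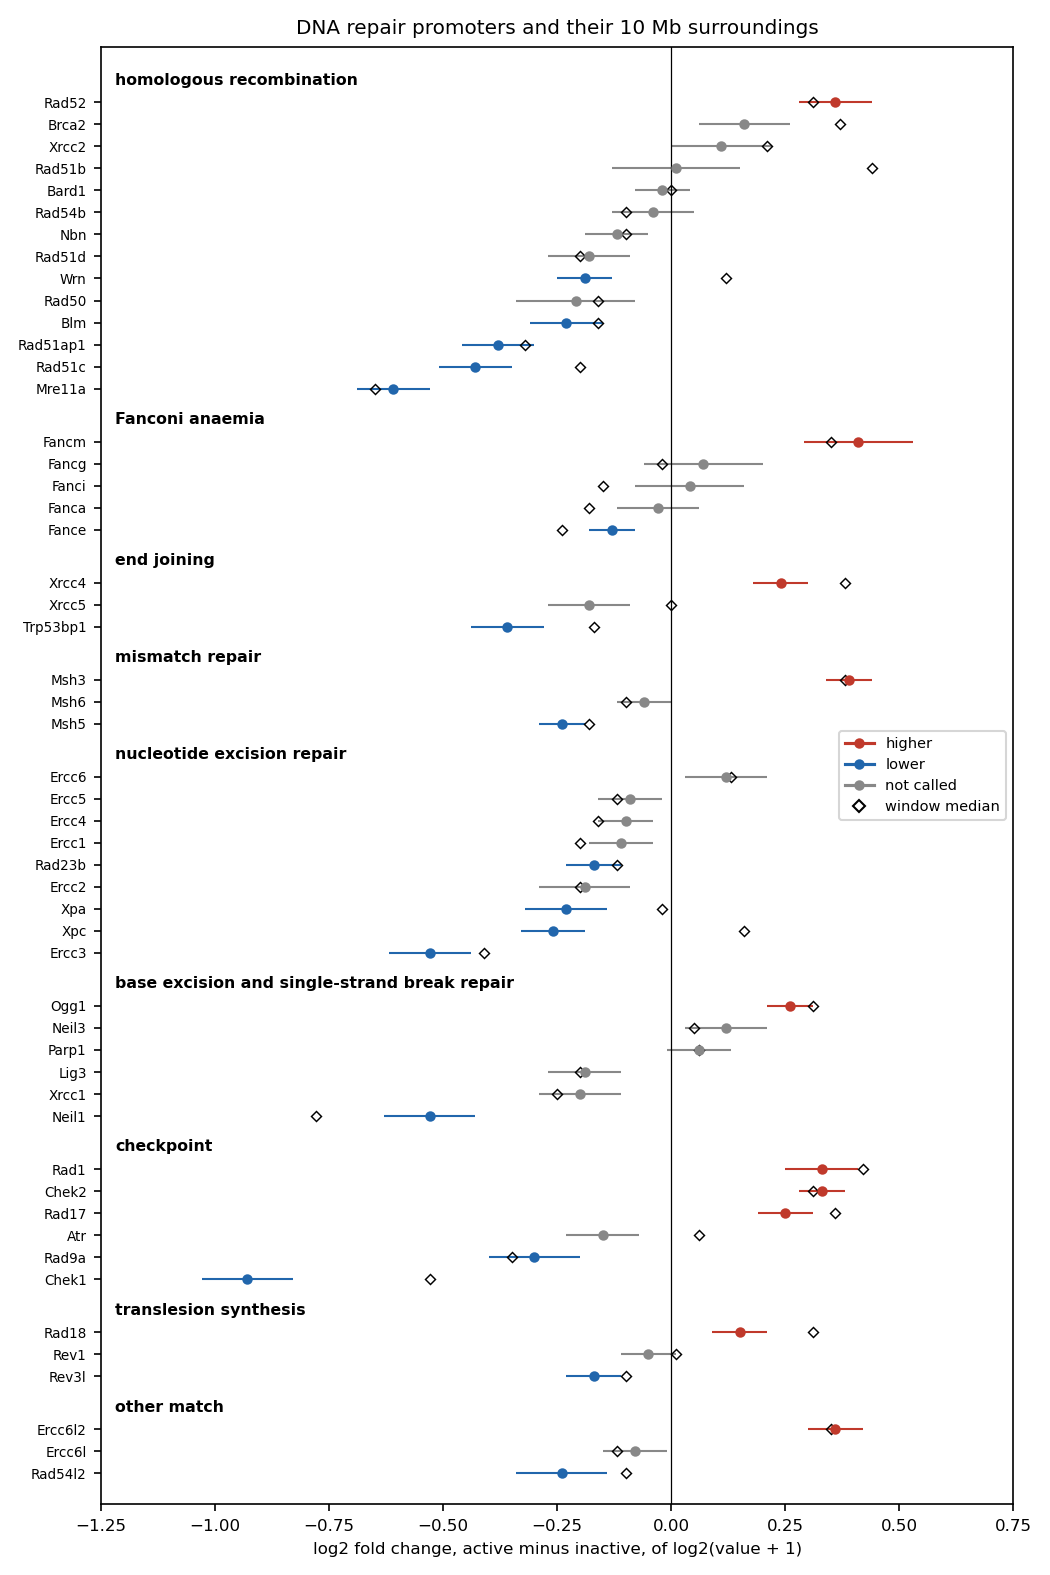
Log2 fold change (active minus inactive, of log2(value + 1)) of 52 repair promoters, grouped by role; points are estimates from 3 libraries per group, bars are 1 standard error, colours give the limma call, and open diamonds give the median log2 fold change of all regions in the same 10 Mb window. Chek1 lies farthest to the left at -0.93, and most points lie near their diamond.

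Checkpoint genes held the largest fall and 3 of the 10 rises. Of 6 promoters, 3 rose, 2 fell and 1 did not pass. Here and in each role below, the counts stand beside 21.2% of all promoters that rose and 37.7% that fell. No role was tested as a set. With every library centred on the median of its 10 Mb windows, 0 of the 6 were higher and 3 lower, beside 12.1% and 24.5% of all promoters. Chek1 encodes the kinase that Atr activates when replication stalls. Its region on chromosome 9 (36637459 to 36638279 on mm39) held 130, 108 and 139 normalised reads with the active ribozyme, in replicate order as below, against 245, 232 and 241 with the inactive. Every active library was thus well below every inactive one, at 125.7 ± 15.9 against 239.3 ± 6.66 (SD, n = 3 each). The log2 fold change was -0.93 ± 0.10 (SE, limma adjusted p = 6.57e-11), a ratio of 0.525. Chek2 encodes the kinase downstream of double-strand breaks, and its promoter went the other way. It held 674, 693 and 699 active reads against 547, 571 and 529, without overlap (log2 fold change 0.33 ± 0.05 SE, limma adjusted p = 2.04e-06).

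Genes of the clamp that activates Atr, and of its loader, also moved in both directions. Rad1, a subunit of the ring-shaped clamp, rose from 185, 195 and 208 to 251, 263 and 226 reads (log2 difference 0.33, limma adjusted p = 9.93e-04). Rad17, the loader of that clamp, rose from 368, 370 and 360 to 454, 417 and 437 (0.25, limma adjusted p = 9.16e-04). Rad9a, another subunit of the clamp, fell from 175, 207 and 199 to 175, 147 and 151 (-0.30, limma adjusted p = 0.00768). The active and inactive libraries of Rad9a touched at 175, and its call was lost without inactive replicate 2 (-0.25, limma adjusted p = 0.0612). Each of these promoters went with the regions around it, whose medians were 0.42 (Rad1), 0.36 (Rad17) and -0.35 (Rad9a). With every library centred on such medians, Rad17 was lower (-0.17), while Rad1 (-0.10) and Rad9a (0.05) did not pass. Hus1, a further subunit of the clamp, did not pass (0.12) and was higher after centring (0.42). Atr itself, the kinase that responds to single-stranded DNA, was at 246, 254 and 262 against 286, 262 and 297 and did not pass, with a tie at 262 (-0.15 ± 0.08 SE, limma adjusted p = 0.0956).

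Homologous recombination was the largest group, with 15 promoters, of which 1 rose, 6 fell and 8 did not pass. Mre11a encodes the nuclease of the complex that first binds a break. It had the clearest fall, to 213, 221 and 208 reads from 319, 331 and 329, a ratio of 0.656 (log2 fold change -0.61 ± 0.08 SE, limma adjusted p = 5.70e-09). The partners of Mre11a in that complex did not pass: Rad50 stood at 105.0 ± 20.1 (active) and 120.7 ± 12.9 (inactive), and Nbn at 348.7 ± 30.5 and 378.3 ± 14.6 (SD, n = 3 each, here and below). Without active replicate 2 both passed as lower (Rad50 -0.34, Nbn -0.18). Groups did not overlap at Mre11a.

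Genes that assist strand exchange moved in both directions. Rad51c, a subunit of recombination mediator complexes, fell to 200, 187 and 180 from 256, 261 and 246 (log2 fold change -0.43 ± 0.08 SE, limma adjusted p = 2.56e-05). Rad51ap1, which stimulates the joining of strands, fell to 273, 239 and 228 from 316, 319 and 326 (-0.38, limma adjusted p = 5.10e-05). Genes related to Rad51c did not pass: Rad51d had a log2 fold change of -0.18, Rad51b of 0.01 and Xrcc2 of 0.11. Rad52, an annealing protein, was the single member of the group to rise, from 217, 245 and 272 to 308, 330 and 301 (0.36, limma adjusted p = 1.83e-04). Rad51ap1 and Rad52 went with the regions around them, whose medians were -0.32 and 0.31. With every library centred on the median of its 10 Mb windows, neither passed (-0.12 and 0.04), while Rad51c stayed lower (-0.23). Brca2, a mediator of strand exchange, was at 149, 173 and 153 against 150, 145 and 131, with groups that overlapped (0.16 ± 0.10 SE, limma adjusted p = 0.181).

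The RecQ helicases Blm and Wrn, whose loss in humans causes the Bloom and Werner syndromes, fell slightly. Wrn went to 569.3 ± 15.2 from 648.3 ± 34.5 (-0.19, limma adjusted p = 0.00400) and Blm to 212.3 ± 12.6 from 249.0 ± 9.64 (-0.23, limma adjusted p = 0.0145). The Blm call was lost when active library 1 (-0.18), inactive library 2 (-0.21) or inactive library 3 (-0.22) was left out. Bard1, a ubiquitin ligase subunit, and Rad54b, a motor protein, did not pass (-0.02 and -0.04).

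Nucleotide excision repair had 5 falls and no rise among 10 promoters, with 5 that did not pass. In 8 of the 10 every active library lay below every inactive one, as at 39.3% of all promoters, and with every library centred on the median of its 10 Mb windows 2 of the 10, Xpa and Xpc, were lower. Ercc3, a helicase subunit of the repair and transcription factor TFIIH, fell farthest, to 149, 136 and 149 reads from 190, 226 and 211 (-0.53 ± 0.09 SE, limma adjusted p = 7.22e-06). Xpc, which recognises the distorted helix, fell to 296, 277 and 295 from 347, 349 and 347 (-0.26 ± 0.07 SE, limma adjusted p = 0.00130). The inactive libraries at Xpc lay within 2 reads of each other.

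The Xpc partner Rad23b fell as well, to 571.7 ± 28.9 from 640.7 ± 15.5 (-0.17, limma adjusted p = 0.00986). Xpa, the scaffold that verifies the lesion, fell to 147, 157 and 162 from 191, 180 and 175 (-0.23, limma adjusted p = 0.0334). Both calls depended on single libraries. Rad23b did not pass without inactive library 3 (-0.15), nor Xpa without active library 1 (-0.19) or inactive library 1 (-0.19) or 2 (-0.23). The nuclease genes Ercc1, Ercc4 and Ercc5 and the helicase gene Ercc2 did not pass and had log2 fold changes from -0.19 to -0.09. Ercc6, which starts repair at stalled RNA polymerase, had the highest value of the group, 0.12, and did not pass.

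Mismatch repair had 1 rise and 1 fall among 5 promoters. Msh3 encodes a subunit of the dimer that recognises insertion and deletion loops. It rose from 775, 823 and 833 to 1074, 1051 and 1066 reads, a ratio of 1.31 (log2 fold change 0.39 ± 0.05 SE, limma adjusted p = 1.57e-09). Msh5, a meiotic member of the family, fell to 557, 578 and 536 from 668, 659 and 649 (-0.24 ± 0.05 SE, limma adjusted p = 2.07e-04). Msh6, which recognises single mispaired bases, did not pass (-0.06).

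Base excision and single-strand break repair had 1 rise and 1 fall among 6 promoters. Ogg1, the glycosylase for oxidised guanine, had the highest level of all 56 members, also per length at 1146 normalised reads per kb. It rose from 1106, 1095 and 1127 to 1374, 1422 and 1211 reads (0.26 ± 0.05 SE, limma adjusted p = 5.37e-06). Neil1, a glycosylase for oxidised pyrimidines, fell to 124, 148 and 108 from 185, 179 and 183 (-0.53 ± 0.10 SE, limma adjusted p = 2.97e-05). Parp1, the sensor of DNA nicks, was at 326, 302 and 327 against 299, 309 and 305, with overlap (0.06 ± 0.07 SE, limma adjusted p = 0.449). The glycosylase Neil3 had a log2 fold change of 0.12 and did not pass.

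The nick-sealing partners Xrcc1 and Lig3 lay just outside the threshold, with log2 fold changes of -0.20 (limma adjusted p = 0.0501) and -0.19 (limma adjusted p = 0.0503). Lig3 passed as lower without active replicate 2 (-0.21) or active replicate 3 (-0.23), and Xrcc1 without active replicate 3 (-0.26) or inactive replicate 3 (-0.26).

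End joining was represented by 3 promoters. Trp53bp1, which protects broken ends from resection, fell to 198, 187 and 203 from 252, 248 and 256 reads (log2 difference -0.36 ± 0.08 SE, limma adjusted p = 2.11e-04). Xrcc4, the partner of the ligase of this pathway, rose from 549, 605 and 606 to 670, 716 and 685 (0.24 ± 0.06 SE, limma adjusted p = 3.36e-04). Groups did not overlap at either gene. Xrcc5, a subunit of the Ku dimer that threads onto ends, was at 165.0 ± 8.54 against 187.0 ± 6.24 and did not pass (-0.18, limma adjusted p = 0.0847).

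Genes of the Fanconi anaemia pathway, which unhooks crosslinked strands, had 1 rise and 1 fall among 5 promoters. Fancm, the DNA translocase that anchors the core complex, rose from 91, 113 and 90 to 120, 150 and 121 reads (0.41 ± 0.12 SE, limma adjusted p = 0.00343). Fance, a core subunit, fell to 650.3 ± 25.1 from 712.3 ± 29.8 (-0.13, limma adjusted p = 0.0317), a call that was lost when active library 3 (-0.10) or inactive library 2 (-0.12) or 3 (-0.11) was left out. Fanca, Fancg and Fanci did not pass, with log2 fold changes from -0.03 to 0.07.

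In translesion synthesis, the copying past damage by tolerant polymerases, Rad18 rose, Rev3l fell and Rev1 did not pass. Rad18, the ubiquitin ligase that recruits those polymerases, went from 487, 484 and 475 to 549, 558 and 501 (0.15, limma adjusted p = 0.0265). Rev3l, the catalytic subunit of polymerase zeta, was at 687.7 ± 42.4 against 774.3 ± 58.7, with overlap (-0.17, limma adjusted p = 0.00827). Both calls depended on single libraries: Rad18 passed with active library 3 left out and with no other library left out (0.12 to 0.16 for the 5 libraries), and Rev3l did not pass without active library 1 (-0.13) or inactive library 3 (-0.12).

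The symbol rule also took in 3 genes of helicase-like proteins that were not placed in any of these roles. Ercc6l2 rose from 513, 443 and 464 to 605, 587 and 635 reads (0.36 ± 0.06 SE, limma adjusted p = 1.84e-06). Rad54l2 fell (-0.24, limma adjusted p = 0.0408), a call that was lost when active library 1 (-0.18) or any inactive library was left out (-0.26, -0.24 and -0.21 for 1, 2 and 3). Ercc6l on the X chromosome did not pass (-0.08).

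**Figure D2:**
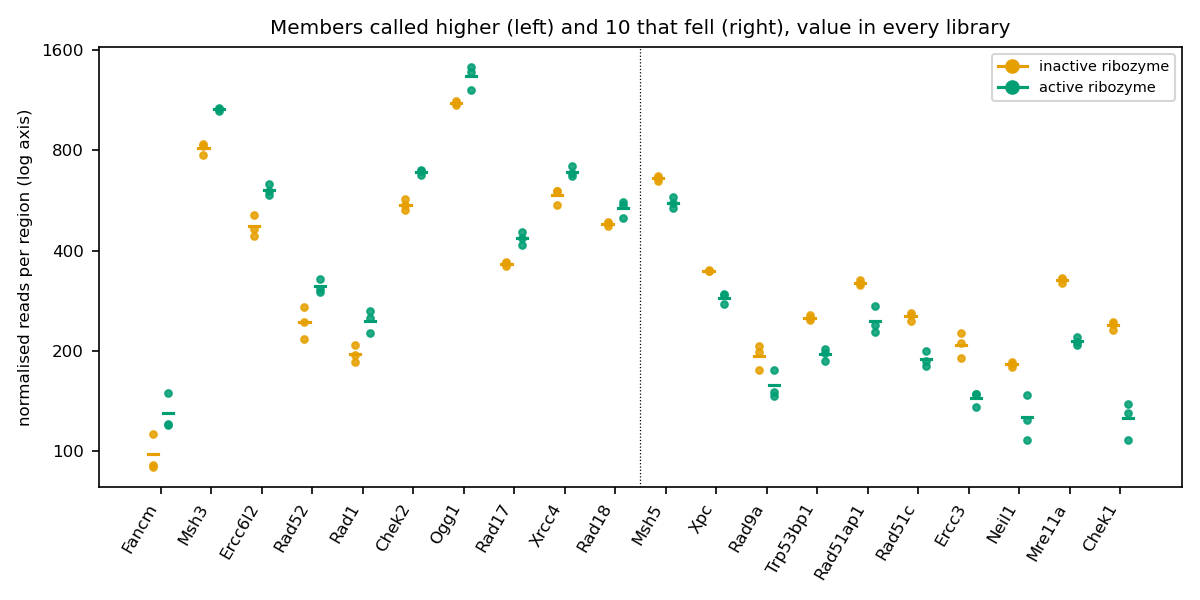
Normalised reads per region (log axis) in every library for the 10 repair promoters that rose, to the left of the dotted line, and 10 that fell, to the right; points are libraries and short lines are group means (n = 3). Green and orange points are separate at every gene shown but Rad9a, where they touch at 175.

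The direction of a repair promoter went with that of its surroundings, as it did at most promoters. For each member the median log2 fold change of all regions in its 10 Mb window, 49 to 454 regions with the member itself included, was set beside its own. Signs were equal for 47 of 56 members (83.9%), against 78.4% of all promoters. Across the 56 members Pearson's r was 0.86 and Spearman's rho 0.80, as a description, since members of a chromosome share libraries and windows, and across 9416 promoters r was 0.47 and rho 0.63. All 10 promoters that rose lay in windows with a median above 0, and 17 of the 19 that fell lay in windows below 0, all but Wrn and Xpc. The same split over all called promoters was not counted, so it cannot be said whether it differs at repair genes. On chromosome 13 all 4 members rose (Ercc6l2, Msh3, Rad17 and Xrcc4), with a member median of 0.31 and a chromosome median of 0.33. On chromosome 9, where the median was -0.29, 4 of 6 members fell and 0 rose. On chromosome 1, where the median was 0.01, 0 of 5 members passed.

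Neighbouring members had values close to each other. Ercc1 and Ercc2, 37.1 kb apart on chromosome 7, had log2 fold changes of -0.11 and -0.19. Lig3 and Rad51d, 109 kb apart on chromosome 11, had -0.19 and -0.18. Rad18 and Ogg1, 630 kb apart on chromosome 6, had 0.15 and 0.26.

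With every library centred on the median of its 10 Mb windows, 0 of 56 repair promoters were higher, 13 were lower and 43 did not pass (limma, adjusted p under 0.05). The shares over all promoters were then 12.1% higher and 24.5% lower, 36.6% in all. Of the 10 rises, 7 no longer passed and 3 (Rad17, Rad18 and Xrcc4) turned to lower, as their rise was smaller than that of their window. Of the 19 falls, 7 stayed lower and 12 no longer passed. Mre11a, at -0.61 in a window at -0.65, went to 0.06, and Neil1, at -0.53 in a window at -0.78, went to 0.24 and did not pass (limma adjusted p = 0.0556). Msh3 went from 0.39 to -0.04 and Ogg1 from 0.26 to -0.05.

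The 7 promoters lower both as deposited and after centring included Chek1, Rad51c, Trp53bp1, Wrn, Xpa and Xpc. Xpc had the strongest centred call, at -0.44 (limma adjusted p = 1.42e-06), having fallen in a window with a median of 0.16. Chek1 stayed at -0.43 (limma adjusted p = 4.17e-04) beyond a window median of -0.53. Wrn was at -0.28 (limma adjusted p = 4.42e-05), Trp53bp1 and Rad51c at -0.23 each (limma adjusted p = 0.0183 and 0.0169), and Xpa at -0.22 (limma adjusted p = 0.0479). Rad51b had a centred value of -0.46 (limma adjusted p = 0.00818), since its own level was near equal in both groups (67, 62 and 87 against 70, 72 and 70) while its window stood at 0.44. Atr (-0.22) also passed as lower after centring alone. With windows of 5 and of 20 Mb, chosen after seeing the data, Chek1, Trp53bp1 and Xpc kept the call at both sizes. Xpc was then smaller, at -0.28 with 5 Mb and -0.29 with 20 Mb, as was Chek1, at -0.28 and -0.29, while Trp53bp1 was at -0.28 with each. With 5 Mb, Rad51c (-0.14) and Wrn (-0.13) lost it, and Neil1 (0.29) and Fance (0.15) were higher. With 20 Mb, Rad51c (-0.18) and Xpa (-0.19) lost it.

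**Figure D3:**
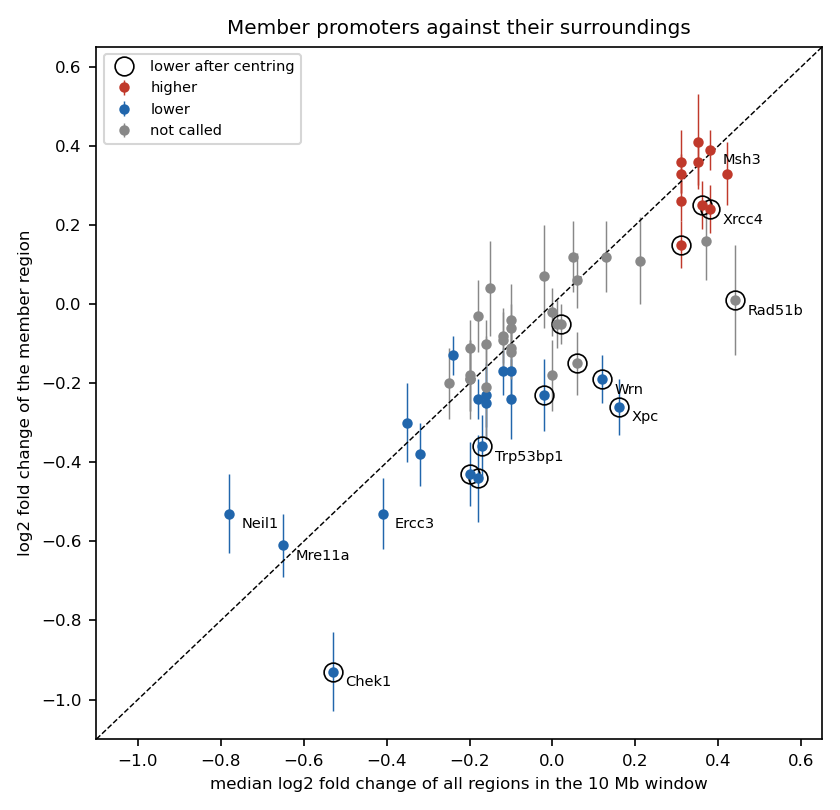
Log2 fold change of each of the 56 repair promoters (vertical, bars 1 standard error) against the median log2 fold change of all regions in its 10 Mb window (horizontal); the dashed line marks equal values, colours give the call as deposited, and rings mark the 13 promoters lower after centring. Chek1, Xpc and Rad51b lie 0.4 or more below the line, and no promoter that rose lies far above it.

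Some genes had regions that did not move together. By the gene models of the deposited table, the start site of Chek1 lay between 2 regions. The one that fell ran from 82 to 902 bp downstream of that site, while the other, from position -741 to -241 (36638602 to 36639102), held 69, 53 and 64 against 68, 68 and 74 reads and did not pass (log2 fold change -0.18 ± 0.15 SE, limma adjusted p = 0.295). The ratio of the downstream to the upstream region was 1.88, 2.04 and 2.17 with the active ribozyme, below the 3.60, 3.41 and 3.26 with the inactive. The start of the RefSeq transcript, before which the printed sequence lies, was not placed on mm39, so that it may differ from the start site in the table. At Msh5 the region at the start site fell as deposited, in a window with a median of -0.18. It did not pass after centring (-0.08, limma adjusted p = 0.203). A region 1350 bp downstream rose from 74, 74 and 86 to 151, 127 and 133 reads (0.80 ± 0.12 SE, limma adjusted p = 2.50e-07). This downstream region stayed higher after centring (0.96, limma adjusted p = 1.04e-08).

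The ratio of the member region to the next tested region of the same gene was compared between groups for 8 genes, with a two-sided exact permutation test over libraries. For Chek1, Ercc1, Fanca, Msh5, Rad54b and Xrcc5 the exact test gave p = 0.1 (0.133 adjusted over the 8). That is as low as 3 libraries against 3 can go, so the test could not pass the threshold and decided nothing. Such a p-value shows only that the ratios of the groups did not overlap. At Rad54b the margin was narrow (3.21 in active replicate 1, 3.23 in inactive replicate 1). How often such ratios separate at other genes with several regions was not counted. The difference in log2 ratio was -1.05 at Msh5, -0.75 at Chek1 and 0.57 at Fanca. At Fanca, a region 1312 bp upstream fell to 29, 37 and 27 reads from 43, 51 and 47 (-0.59 ± 0.19 SE, limma adjusted p = 0.00725), and the promoter did not pass. At Ercc1, a region 2670 bp upstream fell to 57, 69 and 66 from 92, 92 and 81 (-0.46, limma adjusted p = 0.00395), and the promoter again did not pass.

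Among the tested regions of the 64 genes, the largest change was beyond 1000 bp, at Neil2, a glycosylase of base excision repair. The region 1787 bp upstream, on chromosome 14 from 63432722 to 63433461, rose from 24, 28 and 21 to 85, 62 and 79 reads, or to 75.3 ± 11.9 from 24.3 ± 3.51 (log2 fold change 1.59 ± 0.18 SE, limma adjusted p = 9.90e-10). It stayed higher after centring, at 1.32 (limma adjusted p = 1.50e-07). Of the 19 further regions of the 64 genes, 17 were tested, 3 rose and 3 fell, beside 30.9% and 29.2% of all regions tested. Mlh3 rose at a region 1282 bp upstream (0.38, limma adjusted p = 0.0163), and Fancl fell at a region 1121 bp from the start (-0.35, limma adjusted p = 0.00248). The regions near Fancf, Lig4, Msh4, Xrcc3 and Xrcc6 did not pass. A weak region 4996 bp from Ercc5 lay under the minimum for testing, with 6, 0 and 4 reads against 16, 16 and 15.

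**Figure D4:**
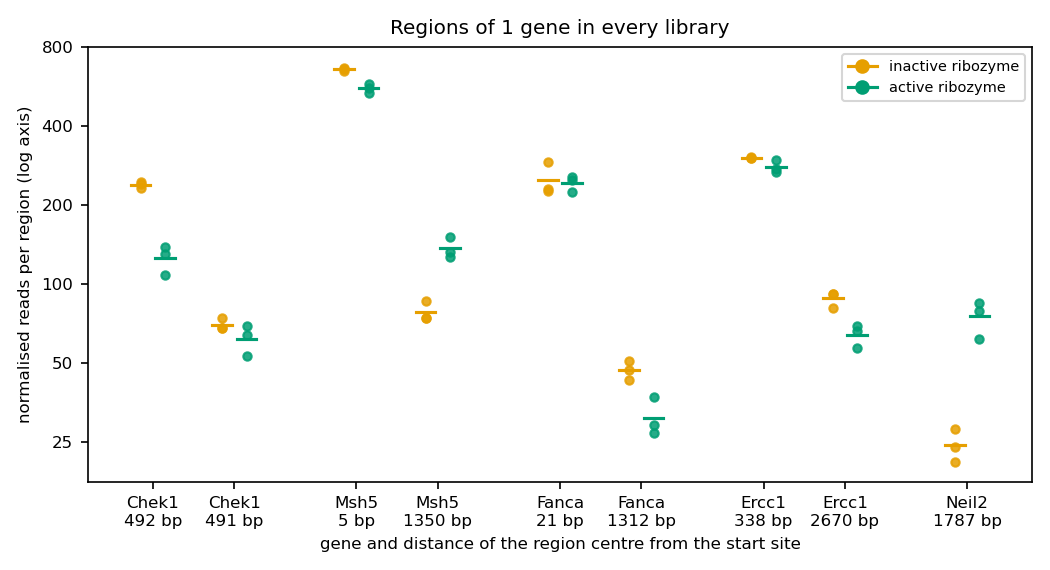
Normalised reads (log axis) in every library for the regions of Chek1, Msh5, Fanca, Ercc1 and Neil2, labelled with the distance of the region centre from the start site; points are libraries, short lines are group means (n = 3), and the genes were chosen after their values were seen. The Chek1 region centred 492 bp downstream separates the groups while that 491 bp upstream does not. The Msh5 regions go in opposite directions in the values as deposited.

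Other repair genes, from a list of 92 that the symbol rule does not name, were read in the same way. A promoter region was present for 64, of which 7 rose (10.9%, beside 21.2% of all promoters), 25 fell (39.1%, beside 37.7%) and 32 did not pass, with a median log2 fold change of -0.16. The largest rises were at Rmi1, a partner of the Blm helicase (903.0 ± 35.0 to 1179 ± 85.9, 0.38 on the log2 scale, limma adjusted p = 7.00e-09), Ung, which removes uracil from DNA (0.36, limma adjusted p = 6.51e-06), and Slf1 (0.29, limma adjusted p = 0.0182). The largest falls were at Poli, a translesion polymerase (374.3 ± 18.8 to 252.7 ± 15.5, -0.57, limma adjusted p = 1.42e-08), Mus81, an endonuclease for branched DNA (734.3 ± 38.5 to 523.3 ± 8.50, -0.49, limma adjusted p = 5.38e-10), and Rnf168, a ubiquitin ligase at breaks (-0.49, limma adjusted p = 6.44e-06). After centring, 5 of the 64 were higher and 10 lower, beside 12.1% and 24.5% of all promoters. The 5 were Ddb2, a damage sensor of nucleotide excision repair (0.33, limma adjusted p = 2.86e-04, and 0.18 as deposited), Hus1, a subunit of the checkpoint clamp (0.42), Palb2 (0.30), Dclre1c (0.28) and Nthl1 (0.26), of which Ddb2 alone had risen as deposited. Rmi1 (-0.06), Ung (0.02) and Slf1 (-0.01) were no longer called, while Poli (-0.30), Mus81 (-0.14) and Rnf168 (-0.23) stayed lower.

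The 250 bases before the start site were searched on both strands in the 40 members with a RefSeq sequence. E2F-type letters (TTTCCCGC, TTTGGCGC, TTTCGCGC or TTTGCCGC) were found in 6 of 40 (15.0%), Bard1, Brca2, Chek2, Fancg, Msh3 and Msh5, against 4.16% of 7501 genes with a promoter region and a sequence and 1.86% of all 32851 RefSeq windows. Of these 6, Chek2 and Msh3 rose, Msh5 fell and 3 did not pass. The CCAAT box was found in 45.0% of members and 40.7% of the 7501 genes (33.8% of all windows), the GC box GGGCGG in 57.5% and 65.3% (32.7%), the ETS-type letters CCGGAAG in 15.0% and 16.0% (6.91%), and TTTGAA, the core of the cell cycle homology region, in 5.00% and 12.1% (16.0%). The letters GCGCATGC, part of the NRF1 motif and chosen after the result of a longer form had been seen, were found in 7.50% and 5.28% (2.26%), in Fanci, Fancm and Xpa among members. By direction, CCGGAAG was found in 4 of the 10 promoters that rose, 2 of 11 that fell and 0 of 19 that did not pass, the CCAAT box in 3, 7 and 8, the GC box in 6, 7 and 10, GCGCATGC in 1 each, and TTTGAA in 0, 0 and 2. These splits were not tested.

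Some promoters may serve a second gene. In the RefSeq windows, 9 of 40 members (22.5%) had a protein-coding gene starting on the opposite strand within 1000 bp, pointing away and overlapping by at most 100 bp, against 9.63% of 7436 genes with a promoter region. These were Mre11a with Ankrd49, Rad1 with Brix1, Rad17 with Ak6 and Taf9, Rad51ap1 with D6Wsu163e, Rad51b with Zfyve26, Rad51c with Tex14, Xrcc1 with Pinlyp, Xrcc4 with Tmem167 and Atr with 1700065D16Rik. Whether the measured regions cover the start site of the partner was not checked. Those of Rad51c and Xrcc1 lay downstream of the gene's own start site, from 138 to 850 and from 353 to 1145 bp. Where a region covers both start sites, its reads cannot be assigned to either direction of transcription.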

How the data were processed

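ATAC-seq libraries of NIH3T3 cells, 3 with the active and 3 with the inactive ribozyme by the title of each sample, were read from the 1 deposited table. Its values were taken as a score (normalised reads), since the authors had scaled the reads of every library to a common level and rounded them, which shows in the numbers (median ratios to the geometric mean of 1.0057 to 1.0063, and 10 and 26 whole numbers below 60 that never occur in active replicates 1 and 2). Per the submitters' processing notes, the tools were DESeq2 1.36.0, featureCounts, Picard 3.1.1, STAR 2.7.11a and Trimmomatic 0.39, with mm39. For the peak caller and a Tn5 offset, nothing is given in the sources used here. Because scaled values were rounded, no count model was applied. Distances in bp are as deposited and start sites follow the table's gene models.

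Regions with a mean of at least 10 (51253) were fitted with limma 3.58.1 in R 4.3.3 on log2(value + 1), with trend and robust settings and no covariate, a scale that understates changes of low regions. P-values were Benjamini-Hochberg adjusted over all of them, with a threshold of 0.05. The fit was also run on simulated data with few changed regions and no regional shifts. That run cannot show how the calls behave in these data. Tables were handled with Python 3.11.15, pandas 2.3.3, numpy 2.4.6, scipy 1.17.1 and matplotlib 3.10.9. For centring, the median deviation of the regions in each 10 Mb window was subtracted from each library. Members, role groups, the other repair genes and the tests were chosen with earlier results of these data known. Named in full were up to 12 called members per direction by size and 15 fixed names, of which 4 are not analysed here; some members are counted but not reported by name here. Other pseudocounts, filters, scalings, region choices and libraries left out in turn were also run.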

Additional observations from a re-analysis of the deposited data

How the results depend on the processing

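Counts of rises and falls among the 56 repair promoters kept within 1.5 times their value under other pseudocounts, filters, region choices and scalings of whole libraries. Without trend in limma, 6 rose and 10 fell, and 3 and 10 of the other repair genes. With centring on windows, the count of rises went to 0 with 10 Mb windows, 0 with 20 Mb and 2 with 5 Mb, the latter sizes chosen after seeing the data, and that of falls to 13, 10 and 11. For the other repair genes, rises went to 5, 4 and 3 and falls to 10, 14 and 9 with 10, 20 and 5 Mb. The median log2 fold change of -0.11 went to -0.06, -0.04 and -0.06, and to -0.07 with quantile normalization, where the median of all regions was -0.07. Besides the main fit, shares of all promoters were counted only with 10 Mb windows, without trend and with the replicate block.

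With 1 library left out, rises ran from 9 to 10 and falls from 13 to 22, the median from -0.13 to -0.09, and rises and falls of the other repair genes from 5 to 8 and from 16 to 27, the lowest count of falls being that without inactive replicate 3. Of the 29 calls, 20 held without each library in turn. Same-numbered libraries did not deviate together (r of 0.001, -0.006 and -0.016 over regions), so the numbers were not taken as pairs. With the replicate block, 10 rose and 19 fell, and 6 and 23 of the other repair genes, so that treating equal numbers as pairs changed no call of a member. Without trend, 13 calls were lost, 4 higher (Fancm, Ogg1, Rad18 and Xrcc4) and 9 lower (among them Blm, Fance, Rad23b, Rad54l2, Rad9a, Rev3l, Wrn and Xpa). With the region nearest to the start site, Chek1 was not called (-0.18).

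The sign of the log2 fold change turned for several members with centring. With 10 and 20 Mb windows, in that order, the values were -0.01 and -0.04 for Chek2, 0.00 (just below 0) and -0.04 for Fancm, and -0.04 and -0.03 for Msh3. With 10, 20 and 5 Mb they were 0.06, 0.03 and 0.06 for Mre11a, 0.24, 0.16 and 0.29 for Neil1, -0.05, -0.11 and -0.03 for Ogg1, -0.10, -0.06 and -0.09 for Rad1, -0.17, -0.14 and -0.19 for Rad17, -0.17, -0.22 and -0.14 for Rad18, 0.05, 0.01 and 0.06 for Rad9a, and -0.19, -0.19 and -0.12 for Xrcc4. Rad51ap1 turned with 5 Mb (0.02) and Rad52 with 20 Mb (-0.02). The cause of these shifts with the window was not tested. Depth limits the low regions most, and intervals for single libraries were not given, since the reads behind the rounded values are estimates.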
